A study of Mus musculus with 12 samples.

Results

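The neurofilament subunit genes Nefl, Nefm and Nefh and the related neuronal intermediate filament genes Ina and Prph were examined in the cerebellum of mice carrying a Sca6 knockin allele. Members were all probe sets that the array annotation assigns to these 5 genes, which gave 11 of the 45101 probe sets on the array and 5 of 18194 genes with a single symbol. None of the 11 probe sets was shared with another gene. Nefl and Prph had 2 and 4 probe sets, Ina had 3, and Nefm and Nefh had 1 each. The study measured total RNA on 12 expression arrays, 3 in each of 4 groups: homozygous knockin mice of the MPI 11Q line, with 11 glutamine codons in the allele, their wild type littermates, homozygous knockin mice of the MPI 118Q line, with 118 glutamine codons, and their wild type littermates. All mice were on a C57BL/6 background and were 6 weeks old. Sca6 stands for spinocerebellar ataxia type 6, in which a glutamine tract encoded by the calcium channel gene Cacna1a is expanded. The labels count mice per group and do not mention pooling, and whole cerebellum was used, so every value below is a mixture over all its cell types. Values are log2 expression per probe set, and a difference of 1 is a doubling.

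Neurofilaments are the main intermediate filaments of myelinated axons and set their calibre. Nefl encodes the light subunit, which forms the core of the filament, and Nefm and Nefh encode the medium and heavy subunits, whose long phosphorylated tails project sideways. Ina encodes alpha-internexin, which co-assembles with these subunits in central neurons, and Prph encodes peripherin, the filament protein of peripheral neurons and of some motor neurons. In the cerebellum, neurofilament protein is prominent in basket cell axons, Purkinje cell axons and the large neurons of the deep nuclei, while the small granule cells hold little. Neurofilament light protein released from injured axons is measured in blood and cerebrospinal fluid as a marker of axonal damage.

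The arrays differed in control signals and marker levels. The mean of the 18S ribosomal RNA control probe sets was 9.23, 8.63 and 8.56 in the 118Q knockin replicates 1, 2 and 3, against 9.66 to 10.54 on the other 9 arrays. Of these, the 118Q-line wild types had 9.78, 9.66 and 10.32 in replicates 1, 2 and 3, and the arrays of the 11Q line 10.10 to 10.54. The 3′ minus 5′ difference of the actin control was 1.04 to 1.15 in the 118Q knockin, where littermates had 1.13 to 1.31. In the 11Q line it was 1.19 to 1.39 for knockin arrays and 1.19 to 1.40 for wild types. For the Gapdh control it was below 0 on all 6 arrays of the 118Q line and above 0 in all 3 11Q knockin arrays. In replicates 1, 2 and 3 of the 11Q-line wild types it was 0.08, 0.09 and -0.09. The mean of the dap control probe sets was 6.10 to 6.30 in the 118Q knockin, and 6.04, 6.25 and 4.88 in replicates 1, 2 and 3 of its littermates. It was 4.21 to 5.42 in the 11Q knockin and 4.78 to 5.53 in the wild types of that line. The median deviation of 21 Purkinje cell markers from their 12-array means was -0.07, -0.59 and -0.55 in 118Q knockin replicates 1, 2 and 3, against 0.06 to 0.27 on the others. Ttr, the choroid plexus transcript, ranged from 5.26 to 11.93 over the 12 arrays. Markers of the cerebellum were bright: Pcp2 of Purkinje cells averaged 10.5 and Gabra6 of granule cells 10.5. The dimmest 40% of probe sets were removed before testing. They held 14 of the 20 brainstem and cranial motor neuron markers with a named probe set, Chat and Isl1 among them, and 6 of 7 peripheral neuron markers. The other 6 brainstem markers stayed: Dbh at 3.95, Ddc at 3.31, Th at 2.66, Hoxb3 at 2.63, Hoxa5 at 2.45 and Slc6a2 at 2.26. A part of brainstem tissue in the samples was not tested.

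Nefl, Nefm, Nefh and Ina were expressed on all 12 arrays, and Prph was dim. The 4 Prph probe sets ranged over the 12 arrays from 2.35 to 2.64, from 1.84 to 2.59, from 0.65 to 1.32 and from 0.41 to 1.16, against a removal limit of 1.58 on the mean, so 2 of them entered the tests and 2 did not. In all, 9 of the 11 member probe sets were among the 27060 tested. Where a gene had several, the one with the highest mean stood for the gene among the 12672 genes tested. For every member probe set past the filter, the ranges of groups that followed each other in the order of the means overlapped.

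Nefh, the heavy subunit, had the lowest values of the series in 2 of the 3 118Q knockin mice. Its log2 expression was 7.48, 6.67 and 6.80 in 118Q knockin replicates 1, 2 and 3, and 7.43, 7.86 and 7.53 in their wild type littermates. It was 7.34, 7.39 and 7.43 in the 11Q knockin and 7.37, 7.49 and 7.89 in the wild type littermates of that line. Replicates 2 and 3 of the 118Q knockin lay below all other arrays, and replicate 1 lay within the range of the wild types. The 118Q knockin mean was 6.98 ± 0.44 (SD, n = 3) against 7.61 ± 0.22 (SD, n = 3) in its littermates, a difference of -0.63 ± 0.20 (SE), or 1.54-fold lower, with a 95% interval from -1.06 to -0.19. This did not pass the threshold of 0.05 (limma, unadjusted p = 0.00829, Benjamini-Hochberg adjusted p = 0.140). Without 118Q knockin replicate 1 the difference was -0.87 and passed (limma, adjusted p = 0.0193), in a fit that called 707 genes, against 24 with all arrays. Without replicate 2 it was -0.47. Over the 12 fits that each left out 1 array, the difference lay between these values (limma, adjusted p 0.0193 to 0.396). With the 18S signal as a covariate it was -0.06 (limma, adjusted p = 0.978), and since the 18S signal was lowest in the 118Q knockin, it and the genotype cannot be told apart. In these bulk samples, fewer cells of a type and less RNA per cell cannot be told apart either.

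Nefm, the medium subunit, was also lowest in 118Q knockin replicates 2 and 3. Its values were 8.25, 7.63 and 7.54 in 118Q knockin replicates 1, 2 and 3, and 7.97, 8.59 and 8.12 in their wild type littermates. In the 11Q line they were 7.94, 7.997 and 7.95 in the knockin and 7.99, 8.07 and 8.58 in the wild type. Those arrays lay below all others, while replicate 1 was the third highest of the 12. The 118Q knockin mean was 7.81 ± 0.39 (SD, n = 3) and that of its littermates 8.23 ± 0.32 (SD, n = 3). The difference of -0.42 ± 0.21 (SE), with a 95% interval from -0.88 to 0.04, did not pass the threshold (limma, adjusted p = 0.309). It was -0.64 without 118Q knockin replicate 1 (limma, adjusted p = 0.080) and -0.24 without replicate 2 of its wild types. With the 18S signal as a covariate it was 0.036 (limma, adjusted p = 0.988). The 3 11Q knockin arrays lay within 0.06 of each other for Nefm, with an SD of 0.03, whereas the wild type groups had an SD of 0.32 each.

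Nefl, the light subunit, was represented by 2 probe sets that parted in the 118Q knockin. The first, 1454672_at, which had the higher mean, gave 8.68, 8.92 and 8.84 in 118Q knockin replicates 1, 2 and 3, and 8.67, 8.91 and 8.57 in their wild type littermates. It gave 8.41, 8.31 and 8.45 in the 11Q knockin and 8.42, 8.60 and 8.78 in its littermates. By this probe set the 118Q knockin was at the upper end of the series, and its range overlapped that of its littermates. The second, 1426255_at, gave 8.47, 7.96 and 7.97 in the 118Q knockin and 8.18, 8.61 and 8.05 in its littermates. In the 11Q line it gave 7.93, 7.996 and 8.05 in the knockin and 8.05, 8.20 and 8.55 in the wild type. By this probe set, 118Q knockin replicates 2 and 3 lay below their 3 littermates, and replicate 1 was above 2 of the 3.

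The 118Q knockin differed from its littermates by 0.10 ± 0.12 (SE) for the first Nefl probe set, with a 95% interval from -0.17 to 0.36 (limma, adjusted p = 0.715). The second gave -0.14 ± 0.18 (SE), with an interval from -0.54 to 0.25 (limma over probe sets, adjusted p = 0.727). Within an array, the first exceeded the second by 0.22, 0.96 and 0.86 in the 3 118Q knockin mice and by 0.24 to 0.53 in the other 9. The gap was thus widest in the 2 knockin mice with low Nefh and Nefm, and narrowest in knockin replicate 1. The mean gap was 0.24 higher in the 118Q knockin than in its littermates, which did not pass an exact two-sided permutation test (p = 0.4, where 3 against 3 arrays cannot go below 0.1). Nefl and Nefm are next to each other among the protein-coding genes of the RefSeq annotation of assembly GRCm38.p6.

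Ina, alpha-internexin, was close to level across the groups by its brightest probe set. This probe set, 1448991_a_at, gave 8.61, 8.26 and 8.29 in the 118Q knockin and 8.68, 8.68 and 8.41 in its littermates. In the 11Q line it gave 8.50, 8.47 and 8.43 in the knockin and 8.56, 8.41 and 8.39 in the wild type. The 118Q knockin differed from its littermates by -0.20 ± 0.12 (SE), with a 95% interval from -0.46 to 0.06 (limma, adjusted p = 0.383), and replicates 2 and 3 were again the lowest of the 12. The other Ina probe sets also lay below the littermates on average in the 118Q knockin. The first of them, 1418178_at, differed by -0.33 ± 0.16 (SE; limma over probe sets, adjusted p = 0.284). The other, 1448992_at, differed by -0.23 ± 0.21 (SE; limma over probe sets, adjusted p = 0.610).

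The dimmest Ina probe set, 1448992_at, did not follow the brightest one in single wild type arrays. It gave 7.49, 7.42 and 6.90 in the 11Q-line wild types and 7.70, 7.61 and 6.89 in the 118Q-line wild types, so replicate 3 of each stood below its group. It gave 7.63, 7.53 and 7.61 in the 11Q knockin and 7.40, 7.02 and 7.08 in the 118Q knockin. Its value minus that of the brightest Ina probe set of the array was -1.498 and -1.52 in those replicates 3, against -1.24 to -0.82 on the other 10 arrays. For this probe set all 3 11Q knockin arrays were above all 3 of their littermates, a difference of 0.32 ± 0.21 (SE) that did not pass the threshold (limma over probe sets, adjusted p = 0.978). Without replicate 3 of those littermates it was 0.13, and the 118Q difference was -0.49 without replicate 3 of the 118Q-line wild types and -0.08 without their replicate 1.

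**Figure D1:**
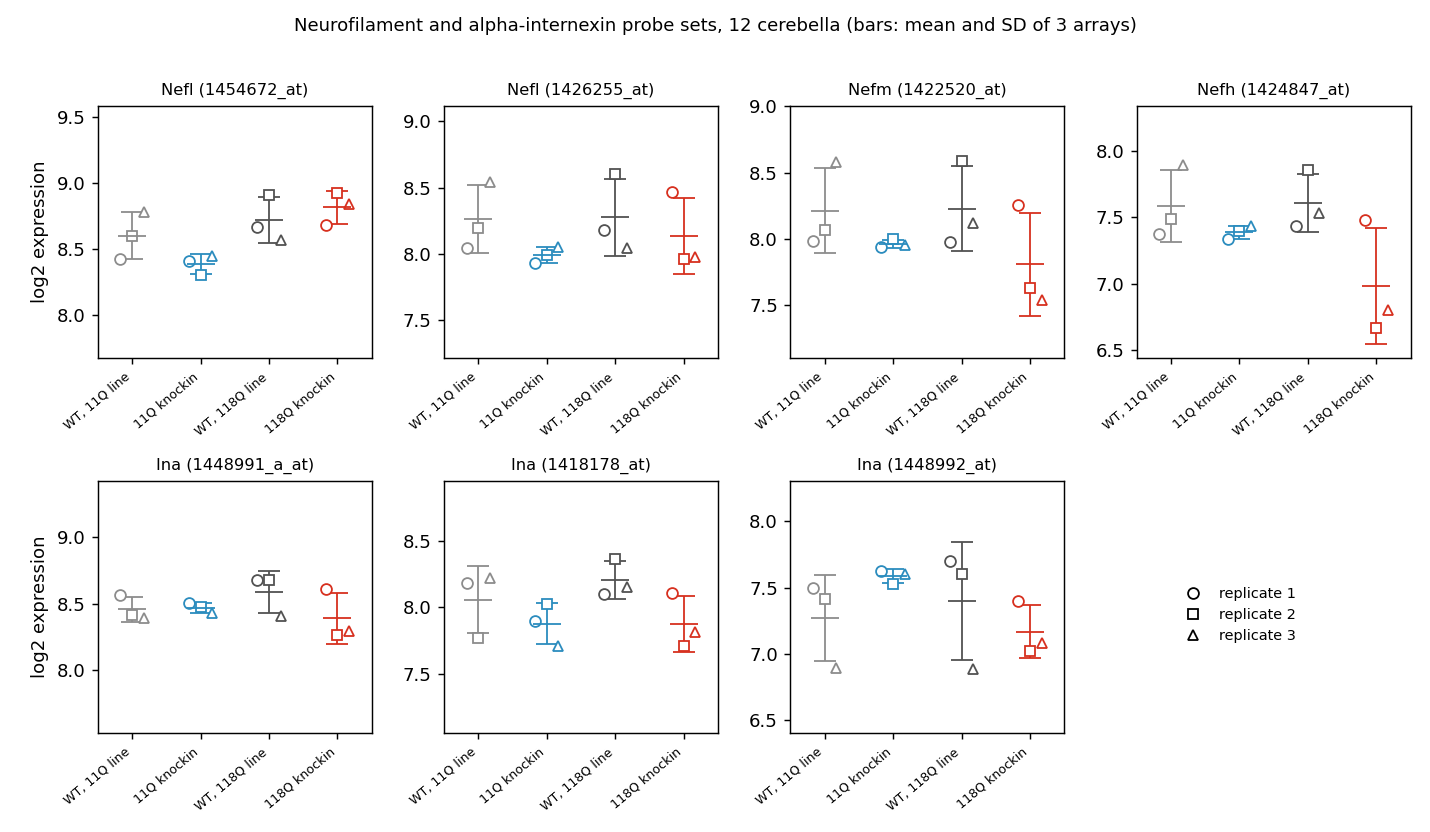
Log2 expression (vertical axis) of the 7 Nefl, Nefm, Nefh and Ina probe sets in the 4 groups (horizontal axis), with a symbol per replicate number and the mean and SD of 3 arrays as bars; the vertical span of every panel is equal and does not start at 0. For Nefm and Nefh, 118Q knockin replicates 2 and 3 sit below all other arrays, while replicate 1 sits among the wild types.

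Against all genes, the count of members past the threshold in the 118Q line was 0. The limma fit called 24 of 12672 genes between the 118Q knockin and its littermates, 0.189 percent, and none of the 5 members, of which 1, Nefh, had an unadjusted p under 0.05. Among probe sets it called 608 of 27060, 2.25 percent, and 0 of the 9 member probe sets. The 3 knockin and 3 wild type arrays did not overlap for 22.4 percent of all genes and for 0 of the 5 members. Of the members, 3 of 5 had a difference below 0, with a median of -0.20, where the median over all genes was 0.06. Of the 9 member probe sets, 7 were below 0. With array weights 3 members passed: Nefh at -0.91 (limma, adjusted p = 0.0012), Nefm at -0.82 (limma, adjusted p = 0.0030) and Ina at -0.34 (limma, adjusted p = 0.0098). That setting called 3131 of the 12672 genes, against 24 without weights, and the iteration for its weights stopped early. At this number of arrays the intervals above leave room for a change of Nefh from -1.06 to -0.19, and of the first Nefl probe set from -0.17 to 0.36.

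In the 11Q line no member passed the threshold. The differences of the 11Q knockin from its littermates were -0.21 ± 0.12 (SE, 95% interval -0.48 to 0.05) for Nefl and -0.25 ± 0.21 (-0.71 to 0.21) for Nefm. They were -0.20 ± 0.20 (-0.63 to 0.24) for Nefh and 0.01 ± 0.12 (-0.25 to 0.27) for Ina. The highest values of Nefl, Nefm and Nefh in the 11Q line were all those of wild type replicate 3, and the groups overlapped for each gene. The median oligodendrocyte and myelin marker deviation, over 15 genes, was 0.29 on that array and -0.36 to 0.04 on the other 5 of the line. It was also 0.31 on replicate 2 of the 118Q-line wild types, the array with the highest Nefm of its line, against 0.05 and -0.26 on the other wild types of that line. In the 118Q knockin it was 0.16, 0.13 and 0.29 in replicates 1, 2 and 3, where Nefm was 8.25, 7.63 and 7.54. The part of these markers in the member values was not tested. Over all genes limma called 0 of 12672 and 0 of 27060 probe sets in the 11Q line, 0 percent of each, with 536 genes under an unadjusted p of 0.05.

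The difference between the effects of both knockins, 118Q minus 11Q, was tested in the same fit and passed for no member. It was 0.31 ± 0.18 (SE) for Nefl (limma, adjusted p = 0.530), -0.43 ± 0.28 for Nefh (95% interval -1.04 to 0.19; limma, adjusted p = 0.595), -0.21 ± 0.17 for Ina (limma, adjusted p = 0.668) and -0.17 ± 0.30 for Nefm (limma, adjusted p = 0.874). No gene of 12672 passed by limma, 0 percent, with 1392 under an unadjusted p of 0.05, and 26 probe sets did, 0.0961 percent, none of them a member. Between the wild types of both lines limma called no gene and no probe set, 0 percent, with 378 genes under an unadjusted p of 0.05.

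Set directly against each other, the knockin groups differed in Nefl. By its first probe set Nefl was higher in the 118Q than in the 11Q knockin by 0.43 ± 0.12 (SE), or 1.34-fold, with a 95% interval from 0.16 to 0.70, and passed the threshold (limma, adjusted p = 0.0409). All 3 118Q knockin arrays, from 8.68 up, were above all 3 11Q knockin arrays, which reached 8.45. Between the wild types of both lines the first Nefl probe set was higher in the 118Q line by 0.12 ± 0.12 (SE) and did not pass. The second Nefl probe set gave 0.14 ± 0.18 (SE) between the knockins, with an interval from -0.25 to 0.53, and did not pass (limma over probe sets, adjusted p = 0.649). The call of the first probe set ended in 14 of 26 alternative analyses, among them the mean of both probe sets, at 0.28 (limma, adjusted p = 0.170), and the 18S signal as a covariate, at 0.12 (limma, adjusted p = 0.880). It also ended in 7 of the 12 that each left out 1 array. Over those 12 the difference lay between 0.37 and 0.49 (limma, adjusted p 0.0284 to 0.129). Without 118Q knockin replicate 2 it was 0.37 (limma, adjusted p = 0.129). Marker lists differed between the same arrays. Purkinje cell markers had a median difference of -0.59 with 10 of 21 called lower, and interneuron markers -0.42 with 5 of 12 lower. Microglia markers had a median of 0.84 with 8 of 13 higher, oligodendrocyte markers 0.41 with 5 of 15 higher, and choroid plexus markers 0.87 with none of 10 called. Over all genes 3.6 percent were called lower and 10.1 percent higher. The part of these lists in the Nefl value was not tested.

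The other members did not pass between the knockin groups. Nefh gave -0.41 ± 0.20 (SE, 95% interval -0.84 to 0.03; limma, adjusted p = 0.188), Nefm -0.16 ± 0.21 (limma, adjusted p = 0.656) and Ina -0.08 ± 0.12 (limma, adjusted p = 0.685). The dimmest Ina probe set was lower in all 3 118Q knockin arrays than in all 3 11Q knockin arrays, by -0.42 ± 0.21, and did not pass (limma over probe sets, adjusted p = 0.204). In this comparison 1732 genes were called, 13.7 percent, with 1276 higher and 456 lower, and the groups did not overlap for 38.1 percent of genes. Among probe sets 13.6 percent were called. The 1 member of 5 called is therefore read against a wide background. The comparison sets mice of 2 lines beside each other and shares its 118Q knockin arrays with the comparison against littermates.

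**Figure D2:**
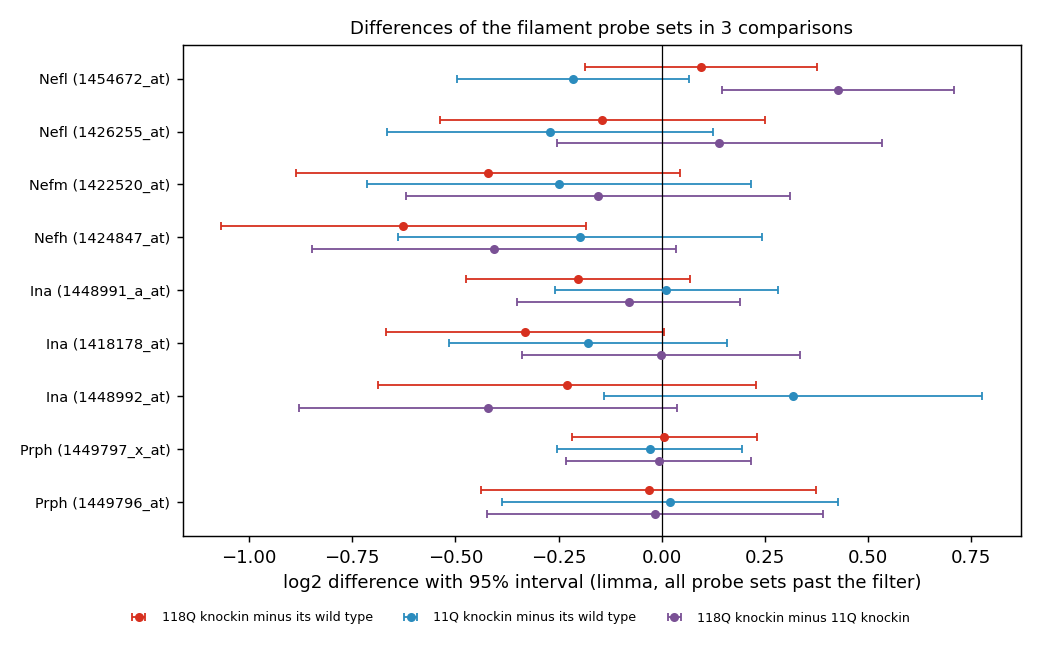
Log2 difference (horizontal axis) with its 95% interval from limma for the 9 member probe sets past the filter (vertical axis) in 3 comparisons, marked by colour. The interval of Nefh lies below 0 in the 118Q knockin against its littermates, and that of the first Nefl probe set lies above 0 only in the 118Q against the 11Q knockin.

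The subunits were also compared within each array, which removes a factor common to an array. Nefh minus the second Nefl probe set was -0.99, -1.29 and -1.17 in the 118Q knockin and -0.75 to -0.52 on the other 9 arrays, so that all 3 knockin mice, replicate 1 included, stood outside the range of the rest. The difference between the 118Q knockin and its littermates was -0.48, at the smallest p that an exact two-sided permutation of 3 against 3 arrays can give (p = 0.1, Benjamini-Hochberg adjusted p = 0.32 over 32 such tests). The same pair gave the same p in the 11Q line, in the opposite direction and at a smaller size of 0.07. Nefh minus Nefm was -0.77, -0.97 and -0.74 in the 118Q knockin and -0.74 to -0.52 elsewhere, a difference from littermates of -0.20 with the same exact p of 0.1, though the nearest knockin and littermate arrays both rounded to -0.74. Against the first Nefl probe set the knockin values spread further, with Nefh minus Nefl at -1.20, -2.26 and -2.04, where littermates ranged from -1.23 to -1.04. This difference of -0.72 gave an exact p of 0.2, since replicate 1 fell inside the littermates' range.

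Nefm and Nefh varied together from mouse to mouse. Over the 12 arrays their Pearson correlation was 0.937 (permutation p = 0.00027, adjusted p = 0.0027 over the 10 pairs of genes) and their Spearman correlation 0.909 (permutation p = 0.00011, adjusted p = 0.0011). Without the 2 arrays farthest from the median of Nefm, replicate 2 of the 118Q-line wild types and replicate 3 of the 11Q-line wild types, r was 0.919. As deviations from the group means, r was 0.957 and did not pass (permutation p = 0.0112, adjusted p = 0.112). The arrays are not of 1 kind, and the 3 11Q knockin arrays take up almost none of the range.

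No other pair passed over the 12 arrays. Nefh and Ina gave r = 0.592 (permutation p = 0.0421, adjusted p = 0.210) and a Spearman correlation of 0.245 (permutation, adjusted p = 0.834), and r was 0.0128 without 118Q knockin replicates 2 and 3. Nefm and Ina gave r = 0.530 (permutation, adjusted p = 0.253) and a Spearman correlation of 0.343 (permutation, adjusted p = 0.834), and r was 0.677 without the same 2 wild type arrays as above. Without wild type replicate 3 of both lines these pairs passed, at 0.828 and 0.798 (permutation, adjusted p = 0.0146 each). Nefl by its first probe set gave r = 0.112 with Nefm and -0.153 with Nefh. In the plot of Nefl against Nefh, wild type arrays run along a rising line, and the 118Q knockin replicates 2 and 3 lie apart, with high Nefl and low Nefh.

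**Figure D3:**
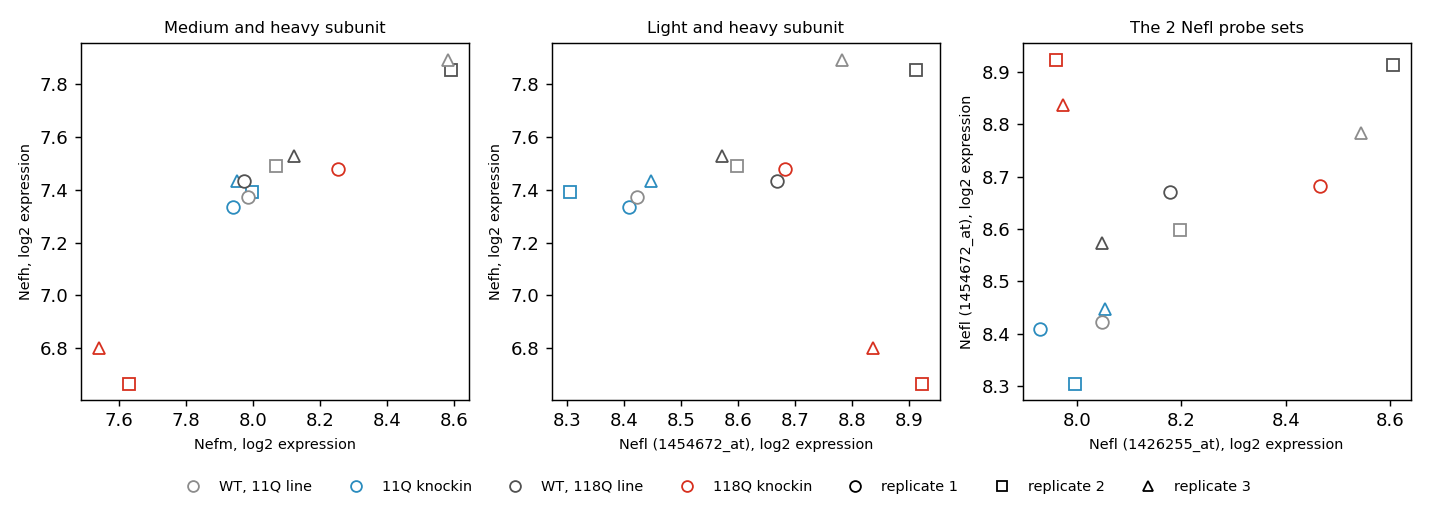
Log2 expression of Nefh against Nefm (left), of Nefh against the first Nefl probe set (middle) and of both Nefl probe sets against each other (right) on the 12 arrays, coloured by group and with a symbol per replicate number. Nefm and Nefh fall along a line (r = 0.937), while 118Q knockin replicates 2 and 3 stand away from the other 10 arrays in the other panels.

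The genes most like each member across the 12 arrays were found among 12101 genes by Pearson correlation, as a description. Nefh was most like Vapa, a membrane contact site protein of the endoplasmic reticulum, at 0.951, followed by Lrfn5, a synaptic adhesion protein, at 0.947 and Lgr4 at 0.946. Nefm was most like Krt25 at 0.917 and Lrfn5 at 0.906. Nefl was most like Cdkal1 at 0.949 and Inhba, an activin subunit, at 0.935. Ina was most like Thy1, a surface glycoprotein of projection neurons, at 0.883 and Tnfrsf21 at 0.875. For the mean of the 3 subunits Mfsd9 led at 0.925, and Chga, the secretory granule protein chromogranin A, followed at 0.924, then Erp29, Cfl1, Ift57 and Ftsj3 at 0.857 to 0.879. Lrfn5 thus stood among the first 3 for both Nefm and Nefh. The dim Prph was most like Col25a1 at 0.917.

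Proteins that crosslink, carry or turn over neurofilaments were read in the same fit. Of 15 measured genes of this list, 11 were below 0 in the 118Q knockin against its littermates, with a median of -0.13 beside 0.06 over all genes, and none passed. Macf1 and Dst, the large spectraplakins that link filaments to actin and microtubules, differed by -0.63 ± 0.13 and -0.49 ± 0.10 (SE; limma, adjusted p = 0.060 each). Between the knockins 3 of the 15 passed, where 13.7 percent of all genes did, 3.6 percent lower. All 3 were lower in 118Q: Dst at -0.68, Macf1 at -0.76 and Dync1h1, the heavy chain of the dynein motor, at -0.89. In the 11Q line Macf1 and Dst differed by 0.02 and 0.05 and did not pass.

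The kinases and phosphatases that act on neurofilament tails were 9 of 12 below 0 in the 118Q line, with a median of -0.08 and none past the threshold. Cdk5, a kinase of Nefm and Nefh tails, was an exception in direction at 0.48 ± 0.12 (SE; limma, adjusted p = 0.071), and Gsk3b, another such kinase, was at -0.31. Between the knockins Cdk5 was higher in 118Q by 0.53 and Gsk3b differed by -0.41, and these were the 2 of the 12 that passed, a share near the 13.7 percent of all genes. Of the other intermediate filament and lamin genes, 8 of 14 were above 0 in the 118Q line and none passed. Gfap, the filament of astrocytes, was at 0.57 (limma, adjusted p = 0.221).

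Microtubule partners of the axon and genes of the axon initial segment and node were mostly below 0 in the 118Q line. Over all genes the median there was 0.06, and 0.189 percent were called. Of 16 microtubule genes 10 were below 0 against littermates, with a median of -0.22, and 1 passed: Tuba8, an alpha-tubulin, fell by 1.20. Map2, of dendritic microtubules, was at -0.42 (limma, adjusted p = 0.071) and Mapt, tau, at -0.32. Of 12 initial segment and node genes 10 were below 0, with a median of -0.30, and none passed. Among them Scn8a, a node sodium channel, was at -0.51 (limma, adjusted p = 0.068) and the ankyrins Ank2 and Ank3 at -0.42 and -0.35. Between the knockins 5 of the 16 and 4 of the 12 passed, all lower in 118Q, beside 3.6 percent of all genes called lower and 13.7 percent called.

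Marker lists of cerebellar cell types differed in direction. In the 118Q line the median over all genes was 0.06, and 0.189 percent of all genes were called. Of 21 Purkinje cell markers 20 were below 0 in the 118Q line, with a median of -0.52, and 1 passed, lower: Slc1a6, the glutamate transporter of these cells. Of 12 interneuron markers 11 were below 0, with a median of -0.34, and none passed. Of 15 markers of large projection neurons and the deep nuclei 9 were below 0, with a median of -0.02, and none passed, with Thy1 at -0.59 (limma, adjusted p = 0.117). The deep nuclei transcription factors Tbr1, Lhx2 and Lhx9 were below the removal limit. In whole cerebellum the median of the remaining genes of this list is not a measure of these neurons alone. Of 13 microglia markers 13 were above 0, with a median of 0.63, and 1 passed, higher: Trem2, a microglial receptor. Of 15 oligodendrocyte markers 12 were above 0, with a median of 0.13 and none past the threshold.

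By array, replicate 1 of the 118Q knockin stood nearer to the wild types than replicates 2 and 3 in some of these lists, as it did for Nefm and Nefh, and not in others. The interneuron median was -0.05, -0.44 and -0.34 in replicates 1, 2 and 3, and that of the axon initial segment list -0.12, -0.31 and -0.23. The microtubule median was -0.02, -0.24 and -0.16, and that of the projection neuron list 0.09, -0.12 and -0.01. The median deviation over the members was 0.09, -0.21 and -0.18. In microglia markers, at 0.76, 0.39 and 0.58, replicate 1 lay farthest from the wild types, and in the crosslinking and transport list, at -0.10, -0.13 and -0.08, replicate 3 lay nearest to them. The part of the marker lists in the member values was not tested. With Ttr as a covariate Nefh was at -0.62 and Nefm at -0.40 in the 118Q line.

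**Figure D4:**
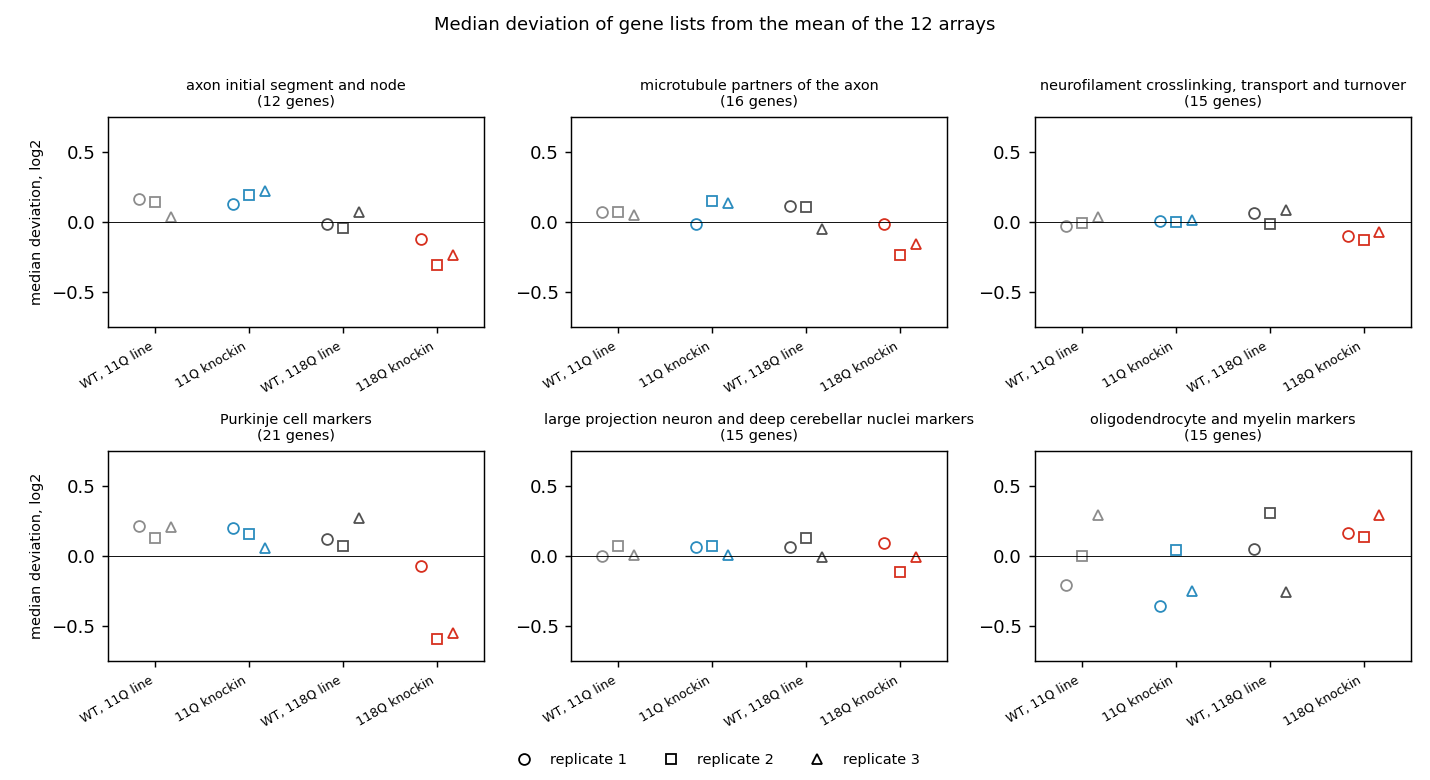
Median deviation from the 12-array mean (vertical axis, log2) of 6 gene lists on each array, by group (horizontal axis) and with a symbol per replicate number. The Purkinje cell median is -0.59 and -0.55 in 118Q knockin replicates 2 and 3 and -0.07 in replicate 1. The median of the projection neuron list is within 0.13 of 0 on all arrays.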

How the data were processed

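The values are log2 expression per probe set, which the authors deposited for 12 arrays; they were made with RMA per the submitters' processing notes, with version and settings not given in the sources used here. RNA had an integrity number above 5.0 in all samples, per the labels. Of 45101 probe sets, the array annotation names 1 gene for 34958, several for 932 and none for 9211. The dimmest 40% of probe sets, with means up to 1.58, were removed, and the brightest remaining probe set stood for each gene. A limma 3.58.1 model (R 4.3.3) of the 4 group means, with 8 residual and 4.61 prior degrees of freedom, tested 12672 genes, and a second one 27060 probe sets, two-sided, with Benjamini-Hochberg adjustment over all of them and a threshold of 0.05. The study's design text names limma too. The fit over genes was tested on simulated data, and the fit over probe sets was not. The simulated noise was independent for each gene, so this test cannot show how a shift shared by many genes of an array affects the calls. Correlations used 100000 permutations. Replicates are mice per the labels, and limma p-values set differences of group means against the spread between arrays within groups. Permutation p-values set a value against reorderings of the arrays. The members and gene lists were chosen with earlier results of these data known. The genes most like a member were the first 3 by Pearson correlation, and the first 6 for the mean of the standardised subunits, with clones and predicted genes passed over. From each list the genes with the smallest p in the 118Q line were named, with up to 3 taken, and other genes were named from counts of calls after their values were seen. Raw scanner files and scan dates were not used here. Apart from correlations across arrays and rankings by mean signal, different probe sets were set against each other only as a difference within an array.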

Additional observations from a re-analysis of the deposited data

Results flagged for a closer look

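The Ina probe set 1448992_at moved in opposite directions in both lines: all 3 11Q knockin arrays were above the mean of their wild type littermates, and all 3 118Q knockin arrays were below the mean of theirs. The difference of the knockin effects was -0.55 ± 0.30 (SE) on the log2 scale and did not pass (limma over probe sets, adjusted p = 0.540). Replicate 1 of the 118Q knockin, at 7.396, lay just under the littermate mean of 7.398. The other Ina probe sets did not show this pattern. The size depended on single wild type arrays: the difference of effects was -0.36 without replicate 3 of the 11Q-line wild types and -0.80 without replicate 3 of the 118Q-line wild types.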

How the results depend on the processing

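With 3 arrays a group, the number of mice limits all of these values. Against 24 genes called in the 118Q line, limma called 0 with the 18S signal as a covariate, 0 with only the groups compared in the fit, 3 without wild type replicate 3 of both lines, 5 with the replicate block, 10 with arrays centred on their median, 43 after quantile normalization, 150 with the lowest 60% removed, 200 with an intensity trend, 3131 with array weights, 391 at an adjusted p below 0.1, 315 at an unadjusted p with a fold of 1.5, and from 4 (without 118Q knockin replicate 3) to 707 (without replicate 1). Against 1732 between the knockins it called 6111 with array weights, 1000 with the block, 0 with the 18S covariate, 2892 at an adjusted p below 0.1, 870 with the fold of 1.5, and from 319 to 2274 without the same 2 arrays. For the difference of effects array weights gave 612 and the fold of 1.5 gave 440.

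Members called between the knockins (1 gene, 1 probe set) were 0 and 0 with median centring, quantile normalization, the replicate block, the unadjusted p with a fold of 1.5, the 18S covariate or the Ttr covariate. The gene count was 0 with the mean of the probe sets, and the probe set count 0 with no filter and 2 without wild type replicate 3 of both lines. Array weights gave 3 and 4, and leaving out 1 array gave 0 to 2 for each. In the 118Q line (0 and 0) array weights gave 3 genes and 6 probe sets, with Nefh at -0.91 (limma, adjusted p = 0.0012), the unadjusted p with a fold gave 1 and 1, and leaving out 1 array gave 0 to 1. For the difference of effects array weights gave 1 and 1. The gene pairs past the threshold (1) were 0 as deviations from group means, 3 without wild type replicate 3 of both lines and 1 to 3 with 1 array left out.

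Directions turned as follows. With the 18S covariate, Nefl was at -0.14 and Nefm at 0.036 in the 118Q line, the Nefl probe set 1426255_at there at 0.082, the difference of effects at 0.20 for Nefm and 0.040 for Nefh, and between the knockins Nefm was at 0.43, Nefh at 0.33 and the Ina probe set 1418178_at at 0.086. That Ina value was 0.078 with the Ttr covariate. The mean of both probe sets put Nefl at -0.024 in the 118Q line. Ina in the 11Q line was at -0.022 with array weights, -0.014 with the Ttr covariate and -0.020 without wild type replicate 3 of both lines. Nefl 1426255_at turned with array weights, to -0.29 for the difference of effects and -0.0064 between the knockins, and to -0.13 for the former without those wild types. The pair Nefl and Nefh gave 0.183 as deviations, and Nefl and Nefm -0.0025 without those wild types. With 1 array left out, Ina in the 11Q line spanned -0.020 to 0.065, Ina 1418178_at between the knockins -0.12 to 0.082, Nefl 1426255_at -0.31 to 0.020 in the 118Q line, -0.040 to 0.29 for the difference and -0.026 to 0.23 between the knockins, Nefm -0.39 to 0.0092 for the difference, and the pairs -0.402 to 0.194 and -0.156 to 0.370. The causes were not tested, and the iteration for the array weights stopped early.

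Same-numbered arrays did not deviate together (correlations 0.193, -0.171 and 0.0127 in the 11Q line and -0.0792, -0.112 and -0.0293 in the 118Q line). This cannot show whether the numbers pair the mice, since paired littermates need not deviate together over all genes. The main fits used no pairing, and the replicate block is given here only, with Nefl between the knockins at 0.43 (limma, adjusted p = 0.0587). A fit on only the groups compared was not run for the difference of effects, which uses all groups.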
